A study of Marchantia polymorpha and Klebsormidium nitens with 125 samples.

Results

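Klebsormidium nitens is a filamentous green alga of the streptophyte lineage, the group of algae from which land plants arose. The data described here are the early transcript changes after sucrose was given back to sucrose-starved cultures of strain NIES-2285. They rest on 6 of the 125 libraries in the series: 3 libraries taken 6 h after resupply and 3 from the sucrose-starved cultures, all from whole cultures and chosen by their labels alone, with no measured value used. The starved cultures had grown for 7 days in full liquid Yamagami medium and then stood for 5 days in the same medium with 0% of its sucrose. The resupplied cultures had the same starvation and then received full medium for 6 h. The labels' protocol describes this change of medium for the liverwort Marchantia polymorpha, and the labels list the matching libraries for K. nitens. The counterparts for the mineral nutrients are 3 libraries at 6 h of nitrate resupply with 3 nitrate-starved ones, and 3 libraries at 6 h of phosphate resupply with 3 phosphate-starved ones, where starvation meant 1% of the nitrate or of the phosphate for 5 days with sucrose present. Libraries at 24 h and 72 h of each resupply and 3 control libraries in full medium complete a set of 39 libraries in 13 groups. No strain, allele or transgene differs between these groups.

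Sucrose is both a carbon source and a signal. In land plants such as Arabidopsis, sugar status is read by hexokinase and by a pair of opposed kinase systems: SnRK1, which is active when sugar is scarce and favours breakdown and storage use, and TOR, which is active when sugar is plentiful and favours ribosome production and growth. Return of sugar after a shortage is known there to change transcripts for photosynthesis, protein synthesis and primary metabolism within hours. How far the alga uses the same routes cannot be read from these files, because they pair no K. nitens identifier with a gene name, and the reference table used here holds the liverwort alone. The results are therefore given for all genes together and for 4 identifiers, printed as the table writes them.

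Totals ran from 21458832 to 25700051 counts in the 6 libraries, and 12176 of the 16122 genes in the table passed the filter on low counts. The labels do not say whether replicates were separate cultures. The spread behind the p-values of single genes is that between replicate libraries, estimated over all 39 K. nitens libraries in 13 groups. That spread may be technical. Counts come from whole cultures, so fewer cells of a kind and less RNA per cell cannot be told apart. Sucrose-starved replicate 3 stood apart in 1 respect: it held 8381 counts on the 9 identifiers that carry the letter r in their number, against 298 and 332 in the other starved libraries, 195 to 262 in the 6 h libraries and 390 to 561 in the controls. These counts were a small part of the library, in which the 74 identifiers with r or t together took 0.0395% of the counts, and at most 0.00285% in any other K. nitens library. The results that rest on them are given with and without that library.

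At 6 h of sucrose resupply, more than 1 in 2 of the tested genes stood at another level than in the starved cultures, in nearly equal numbers up and down, and most of the changes were small. In all, 7488 of 12176 genes (61.5%) passed edgeR's quasi-likelihood test at an adjusted p under 0.05, of which 3770 were higher and 3718 lower at 6 h. Of these, 992 were at least 2-fold higher (8.15% of those tested) and 701 at least 2-fold lower (5.76%), and changes of 8-fold or more were seen in 71 genes that rose and 58 that fell. The median size of the change over all tested genes was 0.34 on the log2 scale, with a median standard error (SE) of 0.1, and the middle 90% of log2 fold changes lay between -1.14 and 1.4. The even split depends on the scaling used (TMM), which centres a trimmed mean of the changes near 0. With library totals alone the median log2 fold change was 0.12, and 4822 genes were higher and 2653 lower. A count of 0 in all 3 starved libraries with some counts at 6 h was found for 392 genes, none with more than 24 counts over the 6 h group. The reverse held for 344 genes, none with more than 47 counts over the starved group.

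Among the transcripts that the cultures held in the largest amounts, more fell than rose after sucrose returned. Of the 100 genes with the highest mean level over all K. nitens groups, 47 fell and 17 rose, where 30.5% and 31% of all tested genes did. Of the 500 highest, 219 fell and 103 rose. With library totals alone 40 of the 100 fell and 23 rose, and 181 of the 500 fell and 136 rose. The 20 most abundant genes of each library took 5.76%, 5.82% and 5.66% of the counts in the 6 h libraries and 7.63%, 7.45% and 7.23% in the starved libraries. The 6 h libraries all lay below the starved ones, a difference with an exact two-sided permutation p = 0.1, the smallest that 3 libraries against 3 can give. The median log2 fold change of the 100 abundant genes was -0.11 for sucrose, -0.31 for 6 h of nitrate and -0.42 for 6 h of phosphate.

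**Figure D1:**
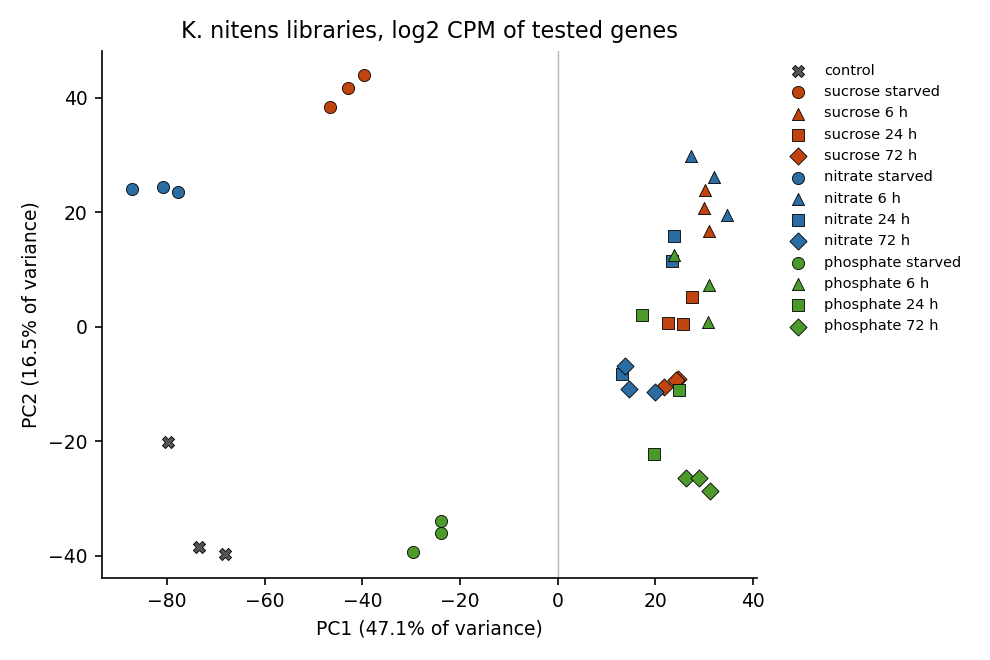
Principal components of log2 CPM (counts per 1e6, TMM-scaled) over the tested genes, 1 point for each of the 39 K. nitens libraries, with colour for the nutrient and shape for the stage. All 27 resupplied libraries lie between 13.1 and 34.8 on the first component, which holds 47.1% of the variance, and all 12 control and starved libraries lie between -87.2 and -23.8.

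The largest part of the sucrose change was shared with the other resupplies. In the plot of the first 2 principal components, all 27 resupplied libraries lay on one side of the first component and all 12 control and starved libraries on the other, whichever nutrient had been withheld and whether 6, 24 or 72 h had passed. Measured as the root mean square (RMS) difference of group means in log2 CPM, the 6 h sucrose group was nearest to the 6 h nitrate group, at 0.33. It was 0.37 from 24 h of sucrose resupply and 0.38 from 24 h of nitrate resupply. From 6 h of phosphate resupply it was 0.41, and from 72 h of sucrose resupply 0.43. It was 0.8 from its own starved group and 1.09 from the control group, which had never been starved. Single libraries of the 6 h and starved sucrose groups differed from their replicates by 0.23 to 0.3, and those of all 13 groups by 0.23 to 0.62. Single libraries carry more noise than group means. The sucrose-starved group was 0.85 from the control. After 6 h of resupply the cultures thus lay further from the control than the starved cultures did, by this distance, which was computed with TMM scaling alone. Against the control, 9279 genes (76.2%) were called at 6 h, 9042 (74.3%) at 24 h and 8964 (73.6%) at 72 h of sucrose resupply, and 8287 (68.1%) in the sucrose-starved cultures. With library totals alone these counts were 9908, 9706, 9792 and 9499, in the same order of groups. These comparisons share the control libraries. By the labels, every resupplied group had been starved and then given its nutrient back, and so was harvested later than its starved group. The return to full medium is described for M. polymorpha alone and is assumed here for K. nitens. The added hours, and any handling that the resupplied cultures had in common, cannot be told apart from the return of a nutrient.

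**Figure D2:**
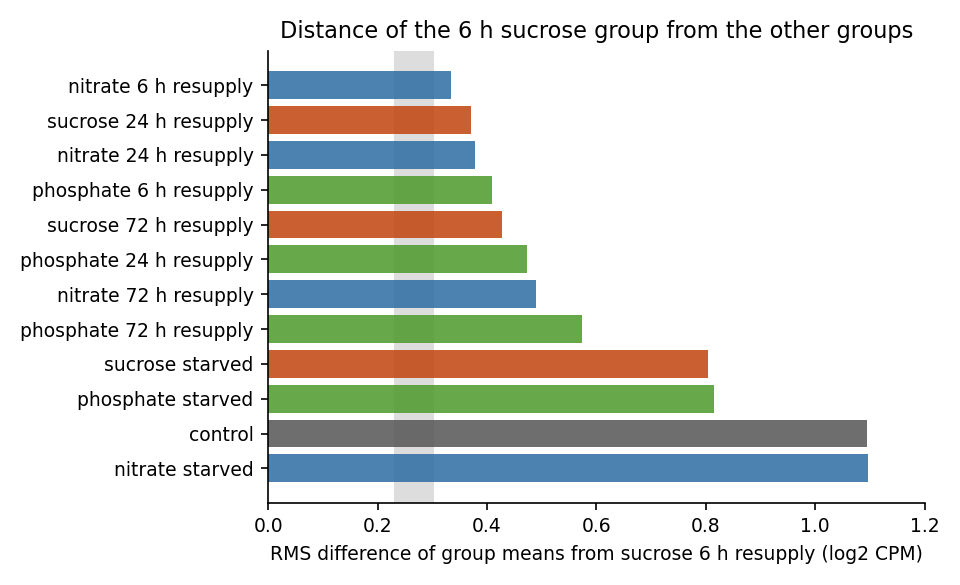
RMS difference between the mean log2 CPM of the 6 h sucrose group and that of each other K. nitens group, over the tested genes. Bars are coloured by nutrient, and the shaded band marks the range between single replicate libraries of the 6 h and starved sucrose groups (0.23 to 0.3), which are not averaged and so carry more noise than group means. The 8 other resupplied groups are nearer than any starved group or the control.

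A resupply step was therefore defined with no sucrose library, as the mean of the 6 nitrate and phosphate resupplied groups minus the mean of the control, nitrate-starved and phosphate-starved groups. It called 10143 genes (83.3%), 5401 higher (44.4%) and 4742 lower (38.9%), or 8126 and 2447 with library totals alone. Of the 1119 genes (9.19%) that the step raised at least 2-fold, 965 rose with 6 h of sucrose (86.2%) and 8 fell (0.715%), where 31% of all tested genes rose and 30.5% fell. Of the 1049 genes (8.62%) that the step lowered at least 2-fold, 764 fell with sucrose (72.8%) and 63 rose (6.01%). The median sucrose change of the raised genes was 1.17 on the log2 scale at 6 h, with 1.07 at 24 h and 1.01 at 72 h, and that of the lowered genes was -0.84, -0.71 and -0.65. The 3 sucrose times share the starved libraries they were compared with. Counted the other way round, 81.4% of the genes that rose with sucrose and 77.8% of those that fell belonged to the step in the same direction at any size. Among the 2033 genes that the step did not call, 300 rose with sucrose (14.8%) and 475 fell (23.4%).

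**Figure D3:**
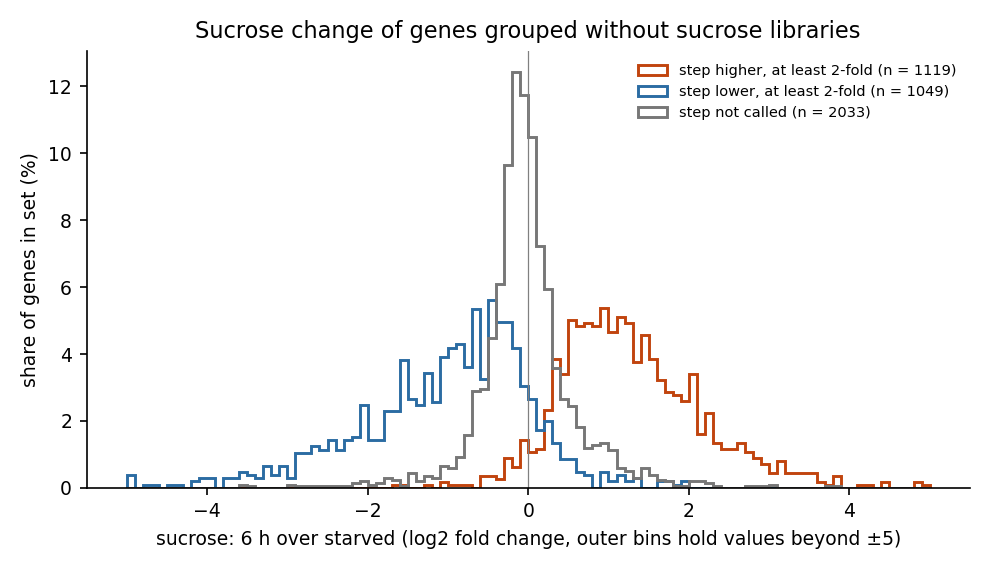
Histogram of the 6 h sucrose log2 fold change (bins of equal width, share of each set in percent) for genes grouped by a resupply step computed from nitrate, phosphate and control libraries alone. Genes raised at least 2-fold by the step centre at a sucrose change of 1.17, genes lowered at least 2-fold at -0.84, and genes the step did not call at -0.06.

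Set against the other 6 h comparisons, which use none of the same libraries, the sucrose change was closer to that of nitrate than to that of phosphate. Nitrate resupply called 9239 genes (75.9%) and phosphate resupply 7863 (64.6%). Across the 12176 genes, the sucrose and nitrate log2 fold changes had a Pearson r of 0.78 and a Spearman rho of 0.76, and the sucrose and phosphate changes 0.4 and 0.44. These are descriptions across genes of the same libraries, which are not independent replicates. Of the 7488 genes called for sucrose, 3928 (52.5%) were called in the same direction for both mineral nutrients, 2018 of them higher (16.6% of those tested) and 1910 lower (15.7%). Together these are 32.3% of all tested genes, and with library totals alone the split was 3492 and 916. A further 1764 (23.6%) were called in the same direction for nitrate with no call for phosphate, while 221 (2.95%) were called in the same direction for phosphate with no call for nitrate. The call went the other way for at least 1 mineral in 4 further classes: 412 genes (5.5%) had the same direction for nitrate and the opposite one for phosphate, 48 (0.641%) the reverse, 419 (5.6%) the opposite direction for 1 mineral with no call for the other, and 248 (3.31%) the opposite direction for both. For 448 genes (5.98%) there was no call for either mineral, which does not show that they stayed constant there.

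The 2018 genes that rose in all 3 comparisons had a median log2 fold change of 0.65 for sucrose, 1.2 for nitrate and 0.61 for phosphate, and the 1910 that fell had -0.51, -0.86 and -0.63. These values chose the genes and are given as a description. Tested directly, the 6 h sucrose change differed from the nitrate change in 5643 genes (46.3%) and from the phosphate change in 6149 (50.5%). It was above the nitrate change in 2559 genes (21%) and below it in 3084 (25.3%), and above the phosphate change in 3387 (27.8%) and below it in 2762 (22.7%). With library totals alone the splits were 1626 above and 4595 below for nitrate, with a median difference of -0.22, and 2316 above and 4442 below for phosphate, with a median difference of -0.15. The balance of directions thus depends on the scaling.

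More genes differed between the starved groups than between the 6 h groups. The 6 h sucrose group differed from the 6 h nitrate group in 999 genes (8.2%) and from the 6 h phosphate group in 3176 (26.1%), while the sucrose-starved group differed from the nitrate-starved group in 7061 (58%) and from the phosphate-starved group in 7739 (63.6%). Of the tested genes, 483 (3.97%) stood apart in one direction from both mineral groups at 6 h, and 3357 (27.6%) did so in the starved state. These direct comparisons were added after the first results were seen.

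**Figure D4:**
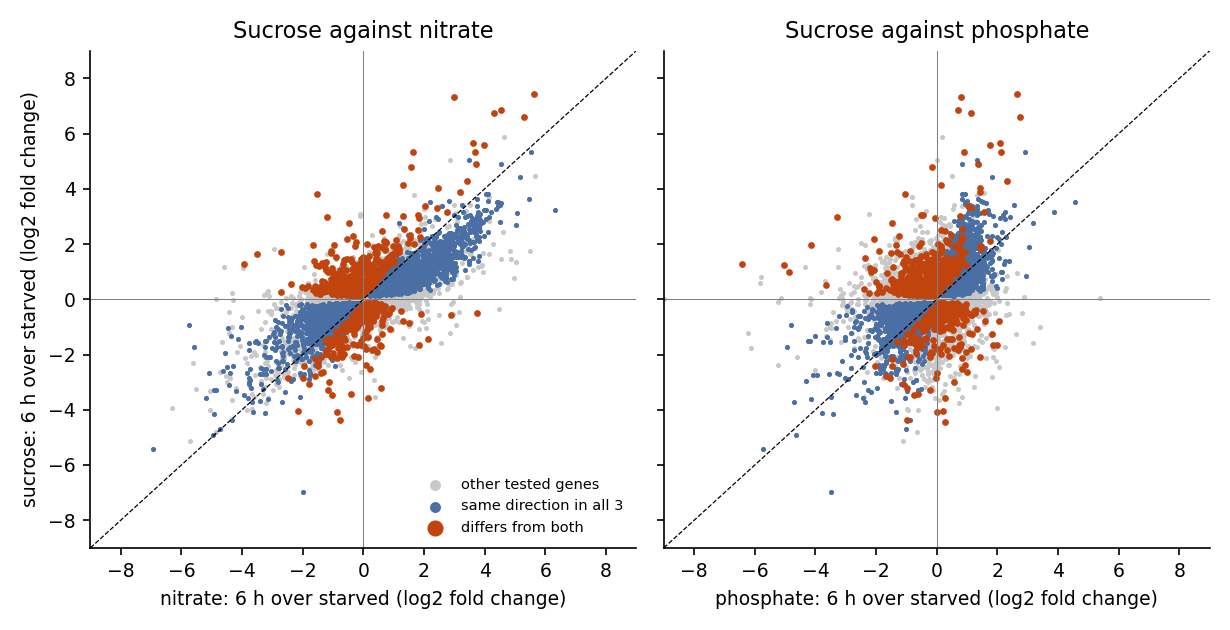
Log2 fold change of each tested gene at 6 h of sucrose resupply (vertical) against 6 h of nitrate (left) or phosphate resupply (right), each over its own starved group, with a dashed line of equal change. Blue genes were called in the same direction in all 3 comparisons, and red genes moved further in their direction for sucrose than for either mineral; sucrose and nitrate follow each other more closely (r = 0.78) than sucrose and phosphate (r = 0.4).

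In a smaller set of genes, the change at 6 h of sucrose resupply went beyond the changes at 6 h of both minerals. In 909 genes (7.47% of those tested) the sucrose change was called and also differed, in its own direction, from the nitrate change and from the phosphate change. Of these, 536 were higher (4.4%) and 373 lower (3.06%) at 6 h, or 434 and 528 with library totals alone. Among them were the 248 genes with the opposite call for both minerals, 186 of which rose with sucrose and 62 fell. The risen genes had a median log2 fold change of 0.59 for sucrose, -0.11 for nitrate and -0.27 for phosphate. The fallen genes had -0.52, 0.03 and 0.19. At least a 2-fold sucrose change was seen in 150 of the 536 risen and 87 of the 373 fallen genes. Among all genes called for sucrose, it was seen in 992 of the 3770 that rose and 701 of the 3718 that fell.

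Most of these 909 genes were marked by an unusual level in the sucrose-starved cultures and not by an unusual level at 6 h. Of the 536 risen genes, 448 were lower in the sucrose-starved group than in both other starved groups, and 76 were higher at 6 h of sucrose than at 6 h of both minerals. Over all 12176 tested genes these counts were 1896 and 255, a smaller share in both states. Counted in either direction, 27.6% of all tested genes stood apart from both mineral groups in the starved state and 3.97% at 6 h. Of the 373 fallen genes, 317 were higher in the sucrose-starved group than in both other starved groups, and 26 were lower at 6 h of sucrose than at 6 h of both minerals, where 1461 and 228 of all tested genes were. The median risen gene stood at -0.76 in the sucrose-starved group, -0.1 at 6 h, -0.12 at 24 h and -0.03 at 72 h of sucrose resupply, in log2 CPM relative to the control. The median fallen gene stood at 0.63, 0.11, 0.1 and 0 on the same scale. The genes that rose in all 3 comparisons showed another course: their median stood at 0.32 in the sucrose-starved group and at 1.1, 0.96 and 0.95 at 6, 24 and 72 h, above the control throughout. All of these levels enter the choice of the genes and are descriptions.

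Between 24 h and 6 h of sucrose resupply 3035 genes differed (24.9%), and between 72 h and 6 h 3536 did (29%), with 276 and 421 of them at least 2-fold. The comparisons of the later times with the starved group called 7575 (62.2%) and 7467 (61.3%) genes, using the same starved libraries as the 6 h comparison.

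Identifiers were considered for naming where the higher sucrose group averaged 10 CPM or more and the replicates did not overlap. Among these, KFL_003710150 had the highest fold change of the genes that rose in all 3 comparisons and also of the 909 genes that moved beyond both minerals. The table gives it no name. It held 98.1, 83.1 and 89.9 CPM in the 6 h sucrose libraries, against 0.567, 0.403 and 0.6 CPM in the sucrose-starved libraries. The groups were far apart, with every 6 h library above every starved one. Its log2 fold change was 7.43 ± 0.27 (SE; edgeR's quasi-likelihood test, adjusted p = 2.33e-20). For the minerals it held 76.9 ± 3.22 CPM at 6 h of nitrate and 1.56 ± 0.378 CPM in the nitrate-starved libraries, and 91.5 ± 7.15 CPM at 6 h of phosphate and 14.6 ± 3.94 CPM in the phosphate-starved libraries (SD, n = 3 each). All the 6 h groups were thus near one level, with a sucrose against phosphate log2 difference of -0.02 ± 0.16 (adjusted p = 0.954 by edgeR), and the starved groups were not. The control held 4.29 ± 1.81 CPM, and 24 and 72 h of sucrose resupply 83 ± 1.68 and 79.7 ± 5.03 CPM, so the level reached at 6 h was still present at 72 h and was far above that of cultures never starved.

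Its neighbours in the numbering moved with it. KFL_003710150 was the last of 7 successive identifiers that all rose at least 2-fold, the longest such run in the table, with log2 fold changes of 3.3 to 7.43 and adjusted p of at most 3.25e-17 by edgeR. The 7 held 24.7 to 254 CPM on average at 6 h and 0.231 to 25.8 CPM in the starved libraries. All 7 were also called higher for nitrate, as were 38.5% of all tested genes, with log2 fold changes of 1.58 to 5.62. For phosphate 6 of the 7 were called higher, as were 32.4% of all tested genes, and the range was -0.16 to 2.73. All 7 were among the genes that rose further for sucrose than for both minerals, as were 4.4% of all tested genes. The run was picked by its sucrose changes, which enter these calls, so the values are a description. Over all tested genes, successive identifiers with the same first 5 digits had a correlation of 0.176 between their sucrose log2 fold changes (9787 pairs), and identifiers 2 places apart 0.035 (8786 pairs). The nitrate and phosphate changes gave 0.154 and 0.181 for successive identifiers. In all, 66 of the 992 genes that rose at least 2-fold and 37 of the 701 that fell stood in runs of 3 or more. The numbering was not checked against a genome, and near-identical neighbours may share reads in a way that the sources used here do not describe.

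Next in fold change among the 909 genes was KFL_003410080, which was added after the values were seen, because KFL_003710150 led both sets that rose. It held 107, 79.5 and 85.4 CPM at 6 h of sucrose, against 0.527, 0.444 and 0.739 CPM in the sucrose-starved libraries, again with no overlap. Its log2 fold change was 7.32 ± 0.84 (adjusted p = 7.12e-09 by edgeR). The phosphate libraries did not separate: they held 36.7, 46.7 and 57.7 CPM at 6 h and 34.6, 43.9 and 3.45 CPM in the starved state, where 1 library was far below the other 2. The sucrose change exceeded the nitrate change by 4.31 ± 1.13 (adjusted p = 0.00225) and the phosphate change by 6.54 ± 1.04 (adjusted p = 4.71e-06). Without that phosphate-starved library, the difference from phosphate was 7.06 ± 0.87 (adjusted p = 8.17e-08). At 6 h the sucrose group was not shown to differ from nitrate (0.62 ± 0.5, adjusted p = 0.495 by edgeR) or phosphate (0.95 ± 0.5, adjusted p = 0.171). The sucrose-starved group lay below the nitrate-starved (-3.69 ± 1, adjusted p = 0.00214 by edgeR) and phosphate-starved groups (-5.59 ± 0.88, adjusted p = 2.14e-06). With sucrose the level rose no further between 6 h and 72 h that the test could show (0.6 ± 0.49, adjusted p = 0.381), and the control held 19.4 ± 5.71 CPM (SD, n = 3).

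KFL_000560140 had the lowest fold change, among identifiers that met the naming rule, of the genes that fell in all 3 comparisons. It held 0.607, 0.378 and 0.605 CPM at 6 h of sucrose, against 17.5, 28.2 and 23 CPM in the sucrose-starved libraries. No 6 h library came near a starved one, and its log2 fold change was -5.41 ± 0.39 (adjusted p = 2.86e-13 by edgeR). The change was -6.93 ± 0.42 for nitrate and -5.73 ± 0.4 for phosphate. The sucrose change differed from that of nitrate by 1.52 ± 0.65 (adjusted p = 0.056) and from that of phosphate by 0.32 ± 0.63 (adjusted p = 0.686), and neither difference passed the test. When each of 18 libraries was left out in turn, the difference from nitrate ran from 1.3 to 1.7 and passed in 5 of the 18 fits, with adjusted p between 0.0253 and 0.125, so it lies near the threshold. The control held 10 ± 1.3 CPM and 72 h of sucrose resupply 0.842 ± 0.241 CPM (SD, n = 3), so this transcript stayed below both the starved and the control level.

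**Figure D5:**
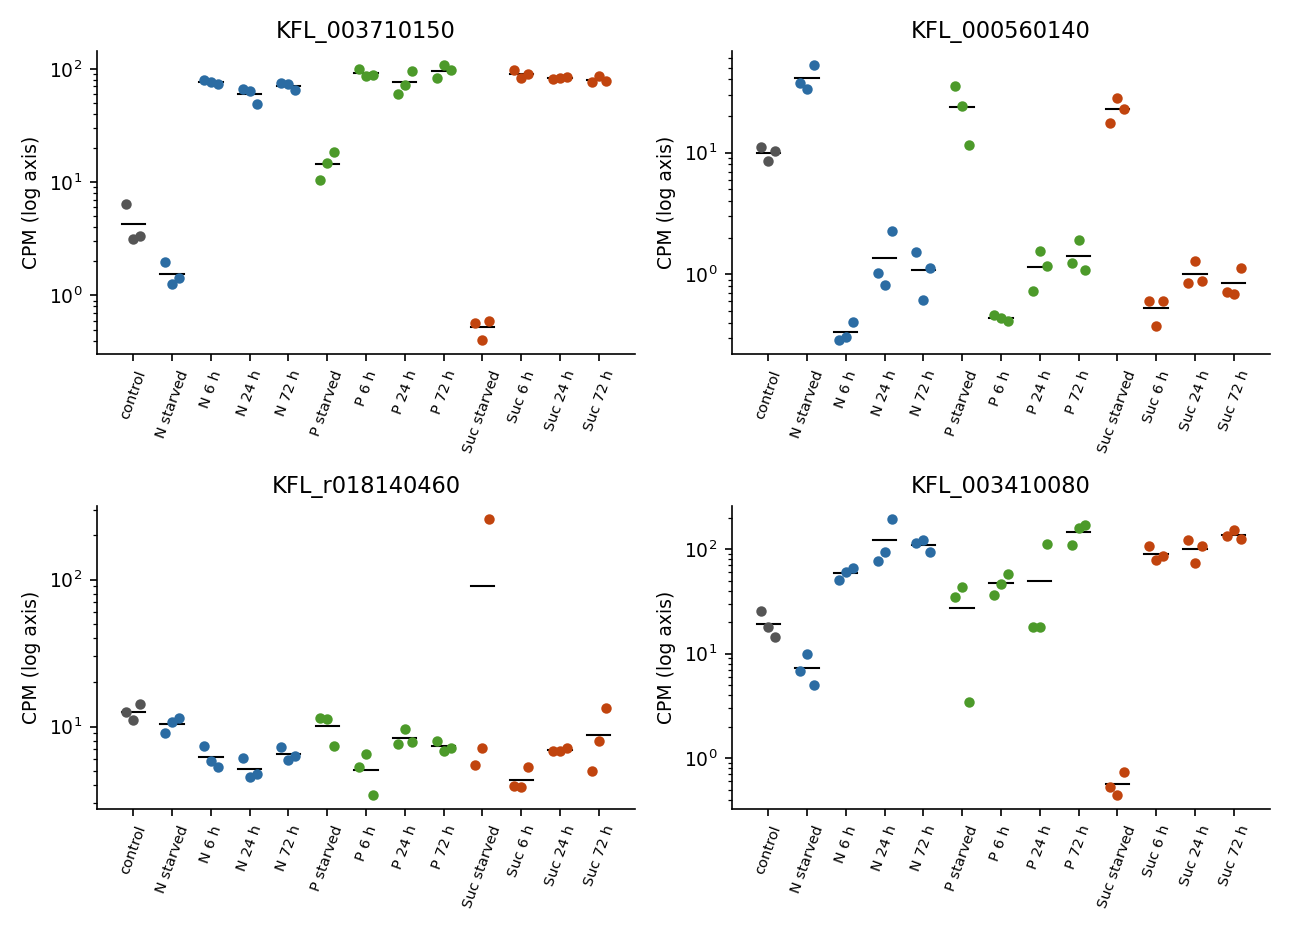
CPM (log axis) of the 4 identifiers in every K. nitens library, by group, with points for libraries and a bar for the group mean; N, P and Suc stand for nitrate, phosphate and sucrose. KFL_003710150 and KFL_003410080 sit below 1 CPM only in the sucrose-starved libraries, KFL_000560140 is at or below 2.29 CPM in every resupplied library, and the high mean of KFL_r018140460 in the sucrose-starved group is 1 library at 257 CPM.

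KFL_r018140460 had the lowest fold change by the same rule among the fallen genes of the 909, and it rests on 1 library. It held 3.93, 3.87 and 5.27 CPM at 6 h of sucrose, against 5.47, 7.1 and 257 CPM in the sucrose-starved libraries. The groups did not overlap, but the high value belonged to replicate 3 alone. The log2 fold change was -4.36 ± 0.77 (adjusted p = 1.21e-05 by edgeR) with that library and -0.53 (adjusted p = 0.101) without it. Its differences from the nitrate and phosphate changes also vanished as calls without it, at 0.23 ± 0.36 (adjusted p = 0.642) and 0.45 ± 0.36 (adjusted p = 0.315). All 4 tested identifiers with the letter r were called lower at 6 h with that library, as were 30.5% of all tested genes. Without it 1 of the 4 was called in either direction. The 3 tested identifiers with t were not called. With all libraries, 61.5% of all tested genes were called in either direction. The other calls depended little on sucrose-starved replicate 3: without it, 6775 of the 7488 sucrose calls and 784 of the 909 genes were called again.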

How the data were processed

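Polyadenylated RNA of whole K. nitens cultures was sequenced as directional libraries, per the labels' protocols. The submitters' processing notes name STAR 2.7 and DESeq2. The authors deposited whole-number counts per gene and library. How reads were assigned to genes, on which build and with what regard to strand, is not given in the sources used here; counts of overlapping or near-identical genes are therefore uncertain. All 39 libraries (18750994 to 33047350 counts) entered 1 model in edgeR 4.0.16, run under R 4.3.3 with limma 3.58.1: filterByExpr with the 13 groups, TMM scaling and the quasi-likelihood F-test for each contrast, with Benjamini-Hochberg adjustment over 12176 genes. SE was taken from the F statistic, and CPM is scaled to TMM library sizes. For principal components and distances, log2 CPM had a prior count of 2. For 24 nitrate and phosphate columns the group was matched but no single sample, so they carry no replicate number; 0 columns were unmatched, and 0 pairs of libraries were identical. Named identifiers averaged 10 CPM or more in whichever sucrose group was higher, with replicates that do not overlap, and the highest or lowest sucrose fold change in their set; 1 was added later. The questions and sets were chosen with earlier results of these data known. Alternatives were RLE size factors, library totals, no filter, DESeq2 1.42.0, the 6 libraries alone, a replicate block and leaving out each of 18 libraries. The calling step was also run on counts drawn from the fitted model itself, with results not reported here. Such a run cannot show whether that model suits these data.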

Additional observations from a re-analysis of the deposited data

Results flagged for a closer look

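The 6 h sucrose change differed from the 6 h nitrate change in 5643 genes and from the 6 h phosphate change in 6149 genes, by edgeR's test of the difference itself.

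Among the named identifiers, the sucrose change of KFL_003710150 was above that of nitrate by 1.81 ± 0.45 (log2, adjusted p = 0.00132) and above that of phosphate by 4.77 ± 0.35 (adjusted p = 1.49e-12). That of KFL_003410080 was above that of nitrate by 4.31 and above that of phosphate by 6.54. That of KFL_r018140460 differed from nitrate by -3.6 ± 1.03 (adjusted p = 0.00468) and from phosphate by -3.38 ± 1.04 (adjusted p = 0.00762), values that rest on sucrose-starved replicate 3: without it they were 0.23 and 0.45, with the sign turned and no call.

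Identifiers with the letter r, which enter no comparison as a group, held 8381 counts in sucrose-starved replicate 3 and 390 to 561 counts in the control libraries. The part of this signal in other results of that library was not tested beyond leaving the library out.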

How the results depend on the processing

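The count of genes called at 6 h of sucrose ran from 6881 to 6978 when single libraries were left out and from 7345 to 8438 under the other settings, the highest with the 6 libraries fitted alone. Genes called in the same direction in all 3 comparisons ran from 3643 to 4408 and those beyond both minerals from 784 to 962 over all settings. No total of called genes in a comparison, both directions together, moved by over 1.5 times under the settings run. Scaling by library totals moved counts in single directions by more: 2447 genes of the resupply step were lower (4742 with TMM), 916 were lower in all 3 comparisons (1910) and 1626 lay above the nitrate change (2559). Without sucrose-starved replicate 3, KFL_r018140460 lost the calls of its sucrose change and of both its differences from the minerals, and called r identifiers went to 1 of 4. The difference of KFL_000560140 from nitrate gained a call in 5 of 18 fits that left out 1 library, fits of these differences that were added after the data were seen. Deviations of same-numbered 6 h and starved sucrose libraries correlated at -0.041 to 0.03. Over 30 pairs of numbered libraries, controls and later sucrose times included, the range was -0.133 to 0.153, with 1 pair above 0.1. Low correlations do not show that the libraries were unpaired. With the number as a replicate block, 7397 genes were called for sucrose and 885 beyond both minerals. The nitrate and phosphate columns carry no number and entered this fit at the level of replicate 1. Direct comparisons of sucrose with mineral groups therefore set unlike levels against each other there. For 6 h of sucrose against 6 h of nitrate, that fit called 696 genes, where the main fit called 999. With 3 libraries a group, a gene without a call is not shown to be constant.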
